A study of Mus musculus with 7 samples.

Results

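The genes described here are 45 genes of the cell cycle, taken by symbol from the 32285 genes of the count tables and not by any measured value; all 45 were found. They comprise 14 genes of S phase (Pcna, Mcm2 to Mcm7, Tyms, Rrm1, Rrm2, Tk1, Ccne1, Ccne2 and E2f1), 25 genes of G2 and mitosis (Mki67, Top2a, Cdk1, the cyclins Ccna2, Ccnb1 and Ccnb2, and kinases, kinesins, centromere and spindle genes), the 3 D-type cyclins of G1 (Ccnd1, Ccnd2 and Ccnd3), the inhibitor Cdkn1a, and Stmn1 and Hmgb2, which accompany proliferation. They were measured by droplet single-cell RNA sequencing of mouse hearts after myocardial infarction (MI) or a sham operation. The series addresses how macrophages that clear dying cells at an early age relate to regeneration of the heart.

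C57BL6/J mice (WT) labelled P1 gave 1 sham library and 2 MI libraries, and C57BL6/J mice of 8 weeks gave 1 sham and 1 MI library. Mice labelled MerTK KO, which lack a receptor tyrosine kinase with which macrophages engulf apoptotic cells, gave 1 sham and 1 MI library at P1 (Mertk KO P1 sham and MI) and are not represented at 8 weeks. The labels do not give the day after surgery, the number of hearts per library or which part of Mertk is missing. Whether the 2 WT P1 MI libraries come from different animals is not given either, and p-values therefore cover only the spread of that pair, possibly a technical one. Leukocytes were enriched by CD45 and put back with the remaining cells at a fixed ratio, so shares of cell types among all cells carry no information here, and every share below is within 1 cell type.

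A dividing cell passes through G1, copies its DNA in S phase, and separates the copies in mitosis. D-type cyclins respond to growth signals in G1, and E2f1 then switches on the S-phase genes: the Mcm2 to Mcm7 helicase opens the double strand, Pcna clamps the polymerase to it, and Rrm1, Rrm2, Tyms and Tk1 supply nucleotides. Mitotic genes come on later, through Cdk1 with its B-type cyclins, and their transcripts are mostly removed when the cell divides or rests. Cdkn1a (p21) blocks cyclin-dependent kinases and is a target of p53. In the neonatal mouse heart fibroblasts, vascular cells and resident macrophages still proliferate, and most of them become quiescent as the heart matures.

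Promoters of some S-phase and mitotic members are shown first, since the lists differ in the elements found there. The sequences are from RefSeq on GRCm38.p6, 5′ to 3′ on the gene's strand, and each is the 150 bases that end just before the annotated start. Capitals mark CCAAT (or ATTGG on the other strand), the element bound by NF-Y; the cell cycle homology region, searched as TTTGAA or TTCGAA (or TTCAAA on the other strand); and E2F sites, searched as TTTGGCGC, TTTCGCGC, TTTCCCGC or TTTGCCGC on both strands. They lie at chr2:132253181-132253330 (Pcna, minus strand), chr12:24708104-24708253 (Rrm2, plus), chr8:75109359-75109508 (Mcm5, plus), chr11:99024190-99024339 (Top2a, minus), chr1:189688087-189688236 (Cenpf, minus), chr4:118437344-118437493 (Cdc20, minus) and chr13:100786487-100786636 (Ccnb1, minus).
Pcna: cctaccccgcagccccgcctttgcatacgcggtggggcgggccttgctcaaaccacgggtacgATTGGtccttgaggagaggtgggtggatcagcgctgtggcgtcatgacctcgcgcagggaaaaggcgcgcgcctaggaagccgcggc
Rrm2: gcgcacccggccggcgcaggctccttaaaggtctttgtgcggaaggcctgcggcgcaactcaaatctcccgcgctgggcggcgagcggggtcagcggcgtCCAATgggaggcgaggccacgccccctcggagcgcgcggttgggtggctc
Mcm5: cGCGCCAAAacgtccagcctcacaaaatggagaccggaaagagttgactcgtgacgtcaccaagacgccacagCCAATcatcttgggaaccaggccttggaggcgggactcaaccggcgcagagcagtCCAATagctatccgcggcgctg
Top2a: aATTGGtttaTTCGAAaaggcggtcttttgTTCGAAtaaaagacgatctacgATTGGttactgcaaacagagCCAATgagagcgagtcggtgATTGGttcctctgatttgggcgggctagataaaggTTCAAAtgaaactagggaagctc
Cenpf: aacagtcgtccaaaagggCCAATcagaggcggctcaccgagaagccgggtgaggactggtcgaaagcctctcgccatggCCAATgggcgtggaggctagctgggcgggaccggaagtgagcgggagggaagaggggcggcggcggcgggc
Cdc20: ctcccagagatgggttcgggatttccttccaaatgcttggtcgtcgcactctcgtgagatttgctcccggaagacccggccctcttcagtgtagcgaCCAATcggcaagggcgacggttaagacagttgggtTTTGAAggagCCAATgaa
Ccnb1: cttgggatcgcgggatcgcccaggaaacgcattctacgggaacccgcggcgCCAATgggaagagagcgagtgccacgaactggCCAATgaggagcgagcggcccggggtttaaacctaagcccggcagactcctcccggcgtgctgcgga
An entry was found for 36 of the 45 members. Over the 250 bases before the start, CCAAT was present in 19 of 21 promoters of mitotic members (90.5%) and in 9 of 13 promoters of S-phase members (69.2%, 12 genes), against 33.8% of all 32851 promoters. The cell cycle homology region was present in 42.9% of the mitotic promoters, 15.4% of the S-phase promoters and 17.1% of all. The E2F octamers were present in 4.76%, 23.1% and 1.86%. The motifs do not overlap in the stretches shown. A match describes these letters and is not evidence of binding.

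Cells were assigned to a type by counting distinct markers from lists that hold no cell cycle gene, and at least 3 markers, and at least 2 times as many as for any other lineage, were required. This rule left out 7945 cells (19.8% of all) as mixed between lineages and 2476 cells (6.17%) with too few markers. The 7 libraries kept between 773 and 15312 cells, with a median of 2152 (WT 8 week MI) to 11408 (WT P1 MI replicate 1) unique molecular identifiers (UMIs, 1 per captured transcript) per cell. Fibroblast-like cells numbered 138 to 2647 per library, endothelial-like cells 49 to 1983 and macrophage-like cells 67 to 1527. Cells near the edge of the rule made up 6.07% of the fibroblast-like, 12.3% of the endothelial-like and 21.4% of the macrophage-like cells. Levels are CPM, the UMIs of a gene per 1e6 UMIs of the class in a library. Mertk in macrophage-like cells was 53.8, 54.1 and 31.3 CPM in the WT P1 sham library and WT P1 MI replicates 1 and 2, and 48.0 and 21.4 CPM in the Mertk KO sham and MI libraries. A 3′ tag may lie outside the deleted part, so this checks nothing. Xist, a transcript of females, was at 0.0365 and 0 CPM in WT 8 week sham and MI, at 342 to 933 CPM in the 3 WT P1 libraries, and at 760 and 46.3 CPM in Mertk KO P1 sham and MI. Ddx3y, of the Y chromosome, was at 0 CPM in Mertk KO P1 sham and at 14.6 to 83.1 CPM in the 6 others. In WT P1 hearts Ddx3y was lower after MI (83.1 CPM in sham, 16.3 and 14.6 CPM in replicates 1 and 2). Xist was higher there (342, 933 and 413 CPM in the same order). Sex thus moved with age, with MI at P1 in WT and in the KO, and with genotype, and its part was not tested. WT 8 week MI stands apart by depth and by what its cells carry: its fibroblast-like cells held 415 CPM of macrophage markers, against 2.97 to 22.5 CPM in the 6 other libraries, and only 9288 CPM of fibroblast markers, the lowest value.

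Most mitotic transcripts came from few cells. In fibroblast-like cells of WT P1 MI replicate 2, the largest such sample, 224 of 2647 cells (8.46%) had both Mki67, a marker of proliferating cells, and Top2a, the topoisomerase that untangles DNA before division. These double-positive cells held 11.9% of all UMIs of the class. They held a median of 89.0% of the UMIs of the 23 mitotic members not used to pick them, from 74.1% for Ccnb2 to 96.7% for Nusap1. S-phase members were less concentrated, with a median of 32.3%: 20.9% for Mcm6, 31.9% for Pcna, 50.8% for Tyms, 70.7% for Rrm2 and 80.1% for Tk1. Ccnd1, Ccnd2, Ccnd3 and Cdkn1a stood at 12.3%, 6.2%, 11.2% and 6.9%, near or under the share of all UMIs. Double-positive cells were deeper, with a median of 15526 UMIs against 10495 in the rest. Cells left out as mixed held many of them. In the same library, at full depth, 502 of 2269 mixed cells (22.1%) had both genes, against 16.8% of endothelial-like and 16.2% of macrophage-like cells. Mixed cells were deeper, with a median of 15504 UMIs against 6168 and 9509.5. After each cell was thinned to the equal depth used below, the shares were 4.37% of mixed, 5.85% of endothelial-like and 5.94% of macrophage-like cells. The order thus turned, though the counting intervals overlap. The thinned fibroblast-like share stayed below the mixed one, at 3.67%. At full depth the mixed share was 8.35% in WT 8 week sham and 0.303% in WT 8 week MI. All shares and levels of a class leave mixed cells out, and their part was not tested.

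**Figure D1:**
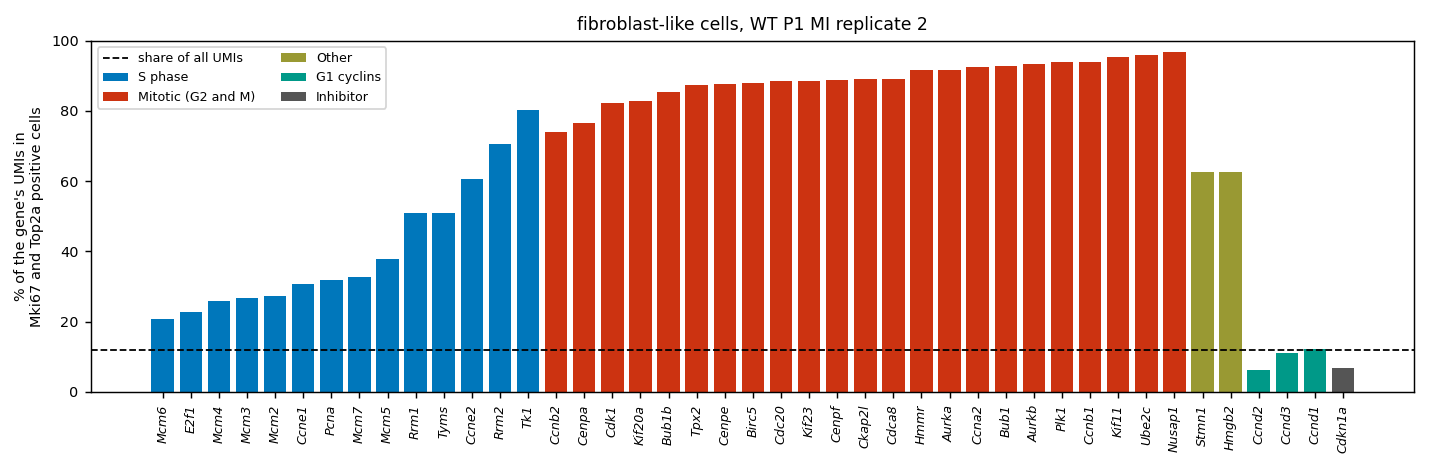
Percent of each gene's UMIs that lay in cells with both Mki67 and Top2a, in fibroblast-like cells of WT P1 MI replicate 2 (bars, by list); the dashed line is the share of all UMIs in those cells (11.9%). Mitotic members stand at 74.1% and above, S-phase members range from 20.9% to 80.1%, and the D-type cyclins and Cdkn1a lie near or below the line.

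The same was seen in the other libraries, with 1 exception. The median over the 23 mitotic members was 86.6% to 95.2% in fibroblast-like cells of the 6 libraries other than WT 8 week MI, 80.8% to 90.4% in endothelial-like cells and 71.4% to 95.2% in macrophage-like cells. In WT 8 week MI it was 15.4% in fibroblast-like cells (15 members with at least 10 UMIs, 4 double-positive cells) and 16.9% in macrophage-like cells (23 members, 20 double-positive cells). Mitotic transcripts there were thus spread over cells without both marker genes, where a cell's depth limits the detection of both. How far free RNA and depth account for this was not tested, and every value from WT 8 week MI below is to be read beside it.

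Age in sham-operated hearts came first, in libraries of 1 per group and therefore without a test. To equalise depth, each cell was thinned to 1500 UMIs and the share with at least 1 UMI of both Mki67 and Top2a was counted. Intervals are exact 95% binomial intervals and cover counting error only. In fibroblast-like cells 5 of 280 (1.79%, 0.582 to 4.12) were double-positive in WT P1 sham and 3 of 1536 (0.195%, 0.0403 to 0.570) in WT 8 week sham, a ratio of 9.14 (1.78 to 58.9). The endothelial-like shares were 4.55% (5 of 110 cells, 1.49 to 10.3) and 0.992% (15 of 1512, 0.556 to 1.63), a ratio of 4.58 (1.30 to 13.3). The macrophage-like shares were 7.84% (12 of 153, 4.12 to 13.3) and 1.51% (9 of 597, 0.692 to 2.84), a ratio of 5.2 (2.01 to 14). These 3 intervals lie above 1, but the endothelial-like difference depended on the depth chosen: the shares were 0.847% and 0.888% at 1000 UMIs, with the order turned, and 3.88% and 2.95% at 2500 UMIs. Without thinning the WT P1 sham and WT 8 week sham shares were 6.05% and 1.47% in fibroblast-like cells and 19.4% and 5.81% in macrophage-like cells. Mature neutrophil-like cells, which no longer divide, had both genes in 0 of 31 and 1 of 749 cells of these libraries at the same depth. The exact upper bounds are 11.2% and 0.742%. The first lies above all 3 P1 shares, so these few cells cannot set a background for P1. The second lies above the fibroblast-like share at 8 weeks. In WT 8 week sham the 23 fibroblast-like cells that were double-positive before thinning had a median of 42091 UMIs against 8586 in the rest; without cells of high doublet scores the thinned share there was 0.0707%.

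Levels gave the same order. In fibroblast-like cells the mitotic members summed to 513 CPM in WT P1 sham and 252 CPM in WT 8 week sham, and the S-phase members to 414 and 189 CPM. Of the 45 members, 23 were at least 2-fold higher at P1 and 0 lower, where 26.5% of all genes with at least 10 UMIs were past 2-fold in either direction. Mcm5, a helicase subunit, was at 19.2 and 4.7 CPM, and Rrm2, the small subunit of ribonucleotide reductase, at 25.4 and 6.2 CPM. In macrophage-like cells the mitotic members summed to 2012 and 672 CPM and the S-phase members to 847 and 260 CPM. There 40 members were at least 2-fold higher at P1 and 1 lower, Ccnd3 (39.5 and 89.2 CPM), against 28.6% of all genes. Mki67 was at 236.9 CPM in WT P1 sham and 76.1 CPM in WT 8 week sham, and Ccnb1, the B-type cyclin partner of Cdk1, at 37.9 and 12.7 CPM. In endothelial-like cells 8 members were past 2-fold, all higher at P1 and 6 of them of S phase. As 22.5% of all genes were past 2-fold in either direction, this count is near the background. The endothelial mitotic sum was 757 CPM at P1 and 563 CPM at 8 weeks. The WT P1 sham endothelial-like cells also held 1028 CPM of erythroid and 396 CPM of cardiomyocyte markers, whose part in these values was not tested.

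**Figure D2:**
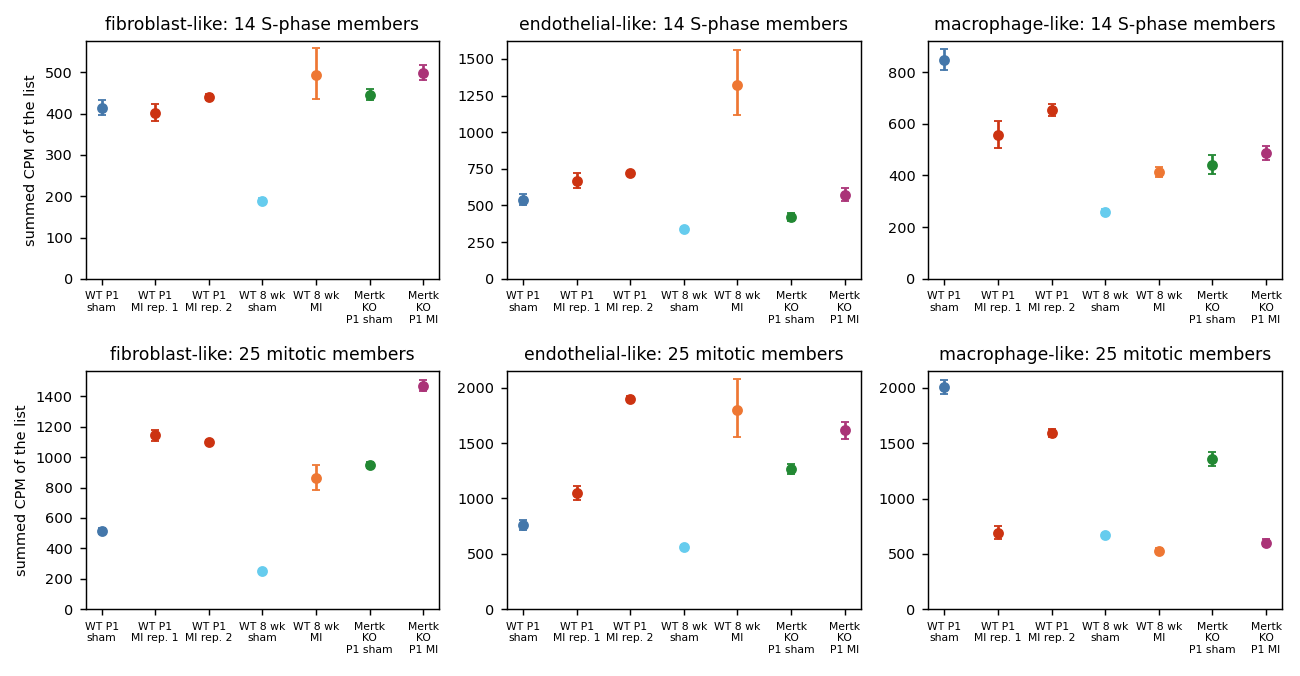
Summed level (CPM) of the 14 S-phase members (top) and 25 mitotic members (bottom) per library in 3 cell types, with exact 95% Poisson intervals for counting error. The WT 8 week sham library is lowest for the S-phase members in all 3 cell types, and the mitotic sum of fibroblast-like cells is higher in both WT P1 MI libraries (1144 and 1103 CPM) than in WT P1 sham (513 CPM).

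MI at P1 was compared with sham in WT hearts, the only comparison of MI with sham that held a replicated group. The sums of a class were tested with edgeR's quasi-likelihood test over all genes, and a gene was called at a Benjamini-Hochberg-adjusted p under 0.05 and a log2 fold change of at least 1 in size. A class sum cannot tell more cycling cells from more transcript per cycling cell. In fibroblast-like cells 7 of 45 members rose and 0 fell, where 1.44% of 13535 genes were called. Of the called members 6 are mitotic. All 25 mitotic members had a log2 fold change above 0 and an unadjusted p under 0.05 (784 of all 13535 genes), with a median of 1.18. Of 14 S-phase members 7 were above 0, with a median of −0.01 (all genes: 0.00). Mitotic members do not count separately, here or below, as they share few cells. In WT P1 sham 17 of 281 fibroblast-like cells were double-positive and held a median of 93.2% of the UMIs of 23 mitotic members. The mitotic sum was 513 CPM in sham and 1123 ± 28.8 CPM (SD, n = 2) after MI, and the S-phase sum 414 and 421 ± 26.4 CPM.

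Cenpf and Cenpe, large proteins of the kinetochore, the structure that attaches chromosomes to the spindle, were among the members that rose. Cenpf was at 28.7 CPM in WT P1 sham and at 82.9 and 81.2 CPM in WT P1 MI replicates 1 and 2, a log2 fold change of 1.54 ± 0.37 (SE; edgeR adjusted p = 0.00537). Cenpe was at 13.0, 35.4 and 38.7 CPM in the same order (1.55 ± 0.37, edgeR adjusted p = 0.00373). Both MI libraries lay at nearly the same level, well above sham. Kif20a, a kinesin of the late spindle, was at 3.9, 15 and 12 CPM (1.78 ± 0.47, edgeR adjusted p = 0.0145). Cdca8, a subunit of the chromosomal passenger complex, was at 19.6, 48.1 and 48.2 CPM (1.32 ± 0.36, edgeR adjusted p = 0.0257). The single S-phase member to rise was Tk1, thymidine kinase, at 11.4, 26.6 and 28.4 CPM (1.31 ± 0.37, edgeR adjusted p = 0.0304); it was also the S-phase member most concentrated in double-positive cells.

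The standard markers moved the same way without passing the test in fibroblast-like cells. Mki67 was at 36.4 CPM in sham and at 86.1 and 70.8 CPM after MI (1.12 ± 0.37, edgeR adjusted p = 0.114), and Top2a at 59.1, 139.0 and 117.5 CPM (1.13 ± 0.38, edgeR adjusted p = 0.146). Cdk1, the mitotic kinase, was at 34.7, 62.8 and 65.6 CPM (edgeR adjusted p = 0.282). Pcna did not differ beyond the spread, at 90.1, 81.8 and 87.7 CPM, nor did Mcm5 at 19.2, 15.3 and 18.3 CPM. The double-positive share was 1.79% (0.582 to 4.12) in sham and 3.67% ± 0.00214 (SD, n = 2) after MI. Replicates 1 and 2 held 7 of 191 (1.49 to 7.41) and 95 of 2590 such cells (2.98 to 4.47). Both intervals overlap that of sham, and the SD is far below this counting error. Of the 27 other mitotic genes listed, 5 rose and 0 fell, where 1.44% of all genes were called. They were led by Anln, a scaffold of the cleavage furrow (1.59 ± 0.38, edgeR adjusted p = 0.00474). Of 19 other S-phase genes 0 were called. The 7 calls fell to 0 with DESeq2 and to 0 when cells were thinned to 1500 UMIs; the mitotic median without WT P1 MI replicate 2 was 1.12.

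**Figure D3:**
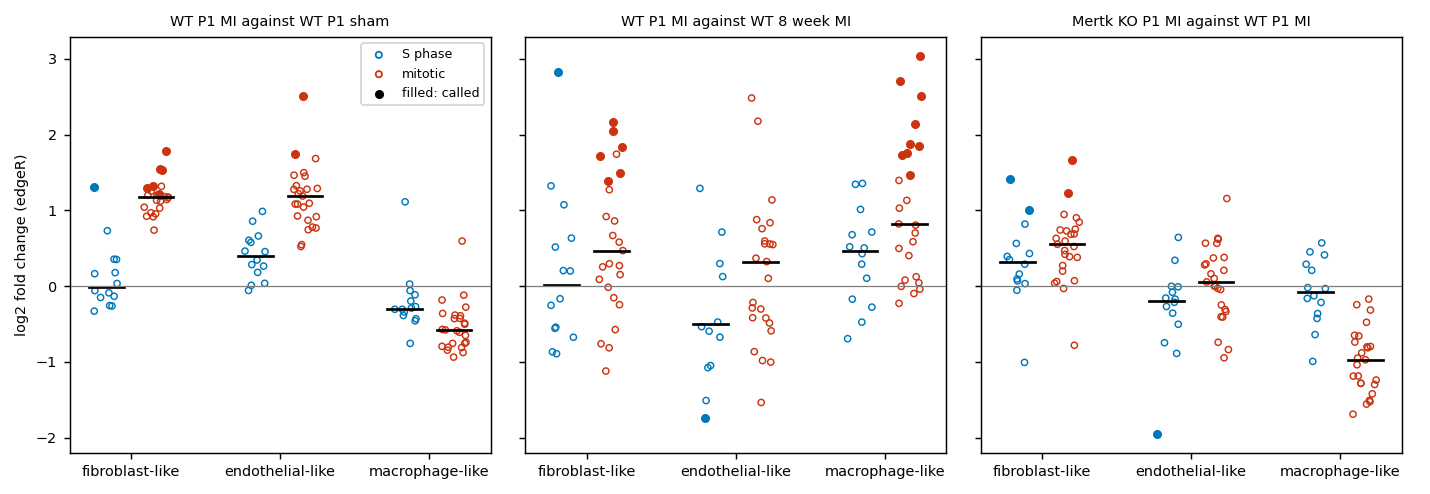
Log2 fold change (edgeR) of each S-phase and mitotic member in 3 comparisons and 3 cell types; filled points were called, bars are medians, and 3 members at 0 UMIs in endothelial-like cells of WT 8 week MI are not drawn. After MI at P1 the mitotic points lie above 0 in fibroblast-like and endothelial-like cells (medians 1.18 and 1.19) and mostly below 0 in macrophage-like cells (median −0.58).

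In endothelial-like cells 2 of 45 members rose after MI at P1 and 0 fell, against 0.307% of 11080 genes called. Ccnb1 was at 5.9 CPM in WT P1 sham and at 30.5 and 32.5 CPM in WT P1 MI replicates 1 and 2 (2.51 ± 0.57, edgeR adjusted p = 0.00718), and Cenpe at 20.7, 56.9 and 71.1 CPM (1.74 ± 0.45, edgeR adjusted p = 0.0374). All 25 mitotic members had a log2 fold change above 0, with a median of 1.19, and the S-phase median was 0.40. An unadjusted p under 0.05 was reached by 18 of the 25 and by 462 of all 11080 genes. The replicates differed here: the mitotic sum was 757 CPM in sham, 1049 CPM in replicate 1 and 1904 CPM in replicate 2, and the median without replicate 2 was 0.43. Mki67 was at 77.8, 104.6 and 141.1 CPM and Top2a at 91.8, 124.9 and 195.4 CPM in the same order, neither called. The double-positive share was 4.55% in sham and 5.40% ± 0.65 (SD, n = 2) after MI at 1500 UMIs. The gap depended on depth: sham and the 2 replicates stood at 0.847%, 5.75% and 3.33% at 1000 UMIs, and at 7.63%, 12.1% and 16.8% without thinning. The count of 2 fell to 0 with DESeq2 and reached 15 with a stricter rule for cell types, which left 0% double-positive cells in sham.

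Macrophage-like cells showed no rise. After MI at P1 0 of 45 members were called, against 1.17% of 10686 genes. An unadjusted p under 0.05 was reached by 1 member and by 494 of all genes. Of the 25 mitotic members 24 had a log2 fold change below 0 (median −0.58, S phase −0.30). DESeq2 also called 0. Mki67 was at 236.9 CPM in sham and at 92.1 and 152.6 CPM after MI, and Top2a at 199.4, 29.5 and 188.4 CPM. For Top2a the 2 MI replicates lay further apart than sham lay from replicate 2. Replicate 1 held 67 macrophage-like cells. Without replicate 2 the mitotic median was −1.49. The double-positive share was 7.84% in sham and 5.35% ± 0.83 (SD, n = 2) after MI, within the counting interval of the sham value.

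MI at 8 weeks was compared with sham without a test, and then with MI at P1. In fibroblast-like cells 31 members were at least 2-fold higher in WT 8 week MI than in sham and 2 lower, where 34.1% of all genes were past 2-fold. The mitotic sum was 252 CPM in sham and 862 CPM after MI, and the S-phase sum 189 and 493 CPM. Rrm2 was at 6.2 CPM in sham and 56.3 CPM after MI, Mcm5 at 4.7 and 27.2 CPM, and Ccnb1 at 4.9 and 44.7 CPM. Only 1 of 130 cells (0.769%, 0.0195 to 4.21) was double-positive, against 0.195% in sham. At least 2 mitotic members were seen in 15.4% of the thinned fibroblast-like cells after MI and in 1.43% of sham. These 138 cells carried, beside the macrophage markers, 563 CPM of the monocyte list (mostly Plac8, 555 CPM) and 353 CPM of the B cell list (mostly Ighm, 330 CPM); the part of such transcripts in the result was not tested.

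Macrophage-like cells of WT 8 week MI, with 1527 cells the best sampled class of that library, had fewer double-positive cells than sham: 6 of 1300 (0.462%, 0.170 to 1.00) against 9 of 597 (1.51%), a ratio of 0.306 (0.090 to 0.963). Broader counts of thinned cells had the opposite order: at least 2 mitotic members were seen in 9.62% of cells after MI and 5.53% of sham, and at least 2 S-phase members in 8.85% and 6.20%. Mki67 was at 11.8 CPM after MI and 76.1 CPM in sham, and Top2a at 24.8 and 58.6 CPM. Other members were higher after MI: Pcna was at 145.2 and 70.0 CPM, Rrm2 at 29.3 and 12.1 CPM, and Tyms, thymidylate synthase, at 27.7 and 13.5 CPM. Past 2-fold, 6 members were higher (5 of S phase) and 10 lower (9 mitotic), against 36.5% of all genes, so the count of 16 is near the background. The median log2 ratios were 0.51 for the S-phase list, −0.19 for the mitotic list and −0.32 for all genes, so the mitotic median lay no lower than that of genes in general.

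After MI, some mitotic members, but not the list as a whole in both replicates, were higher in macrophage-like cells at P1 than at 8 weeks. Relative to WT 8 week MI, 9 of 45 members rose in the WT P1 MI libraries, all mitotic, and 0 fell. As 12.3% of all genes were called, the count is not far above the background. Mki67 was at 92.1 and 152.6 CPM in WT P1 MI replicates 1 and 2 and at 11.8 CPM in WT 8 week MI (3.04 ± 0.61, edgeR adjusted p = 4.67e-05). The kinesin Kif23, which bundles the microtubules of the midzone, was at 27.0, 55.0 and 5.2 CPM (2.70 ± 0.57, edgeR adjusted p = 0.000122), Cenpf at 30.7, 61.4 and 6.6 CPM (2.52 ± 0.57, edgeR adjusted p = 0.000349) and Kif11, the motor that separates spindle poles, at 11.1, 33.8 and 4.5 CPM (2.14 ± 0.55, edgeR adjusted p = 0.00291). Both MI replicates lay above the 8 week library for each of these 4. Top2a was called (1.87 ± 0.56, edgeR adjusted p = 0.0126) only through replicate 2: at 29.5, 188.4 and 24.8 CPM, its log2 fold change without that replicate was −0.16. Cdk1 (0.50), Ccnb1 (−0.10), Pcna (−0.28) and Rrm2 (−0.47) were not called. The mitotic median was 0.82 (−0.11 without replicate 2) and the S-phase median 0.47; DESeq2 called 3 members. The double-positive shares were 5.35% ± 0.83 (SD, n = 2) and 0.462%.

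In fibroblast-like cells the same comparison of ages after MI called 8 members higher at P1 and 1 lower, where 16.5% of all genes were called, so the count is near the background. Ccnd1, the cyclin that carries growth signals into G1, was at 265.8 and 235.5 CPM in WT P1 MI replicates 1 and 2 and at 23.3 CPM in WT 8 week MI (3.52 ± 0.60, edgeR adjusted p = 2.77e-07). Mki67 was at 86.1, 70.8 and 23.3 CPM (1.84 ± 0.51, edgeR adjusted p = 0.00397), Cenpf at 82.9, 81.2 and 21.4 CPM (2.04 ± 0.51, edgeR adjusted p = 0.00126) and Nusap1, a microtubule-binding protein of the spindle, at 35.7, 44.1 and 9.7 CPM (2.16 ± 0.60, edgeR adjusted p = 0.00398). E2f1, also called, rested on 1 UMI in WT 8 week MI. Cdkn1a fell: it was at 107.6 and 135.4 CPM at P1 and 487.3 CPM at 8 weeks (−1.89 ± 0.39, edgeR adjusted p = 4.32e-05). In endothelial-like cells 1 member was called, against 3.39% of genes: Rrm2, at 36.6 and 56.1 CPM at P1 and 206.6 CPM at 8 weeks (−1.74 ± 0.48, edgeR adjusted p = 0.0151). This single call is near the background. The WT 8 week MI library held 49 endothelial-like cells and 106483 UMIs, with Ccne1, Kif11 and Mcm2 at 0. Its mitotic median was 0.33, with Kif11 at a fitted value that is no bound, and −0.77 without WT P1 MI replicate 2.

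The change with MI was then compared between the ages in the same fit. In fibroblast-like cells 5 members differed, where 4.19% of genes were called. Rrm2 (−2.81 ± 0.56, edgeR adjusted p = 0.000128), Mcm5 (−2.46 ± 0.65, edgeR adjusted p = 0.00849), Mcm2 (−2.87 ± 0.70, edgeR adjusted p = 0.00341) and Ccnb1 (−2.03 ± 0.59, edgeR adjusted p = 0.0224) changed less with MI at P1 than at 8 weeks. Mcm2, another helicase subunit, was at 18.2, 13.9 and 15.4 CPM in WT P1 sham and MI replicates 1 and 2, and at 3.3 and 23.3 CPM in WT 8 week sham and MI. Ccnd1 went the other way (2.43 ± 0.76, edgeR adjusted p = 0.0391), at 299.5, 265.8 and 235.5 CPM at P1 and 129.3 and 23.3 CPM at 8 weeks. The S-phase median was −0.84 and the mitotic median −0.08. In endothelial-like cells Rrm2 was the member called (−2.95 ± 0.67, edgeR adjusted p = 0.00409; 1.18% of genes), at 34.1, 36.6 and 56.1 CPM at P1 and 14.2 and 206.6 CPM at 8 weeks. In macrophage-like cells 0 members were called by edgeR or DESeq2, where edgeR called 4.13% of genes. An unadjusted p under 0.05 was reached by 10 members and by 1577 of all 10686 genes. All 14 S-phase members had values below 0 (median −1.04).

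**Figure D4:**
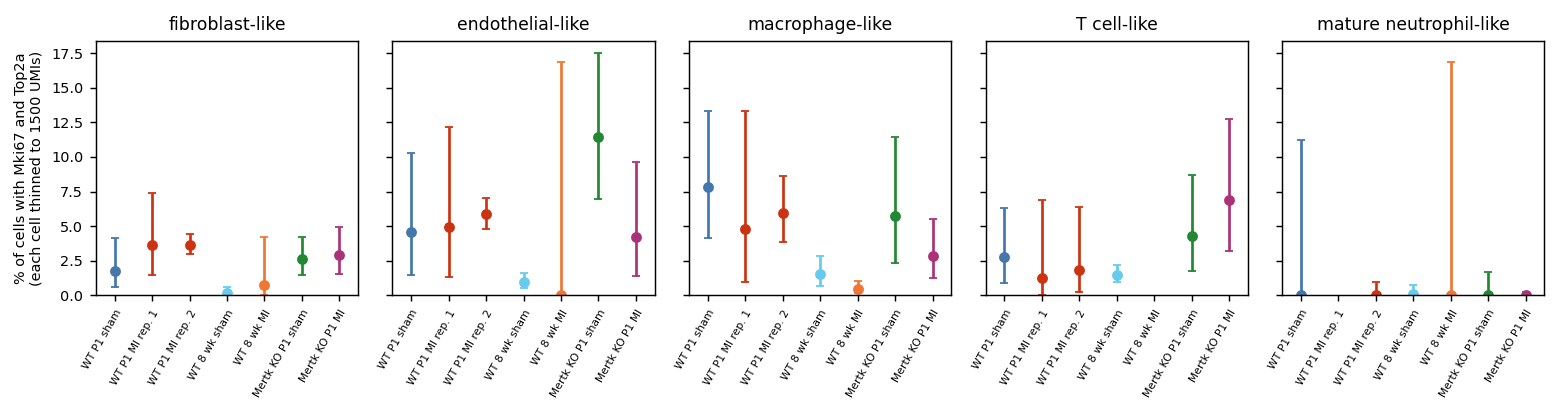
Percent of cells with at least 1 UMI of both Mki67 and Top2a after each cell was thinned to 1500 UMIs, per library and cell type, with exact 95% binomial intervals for counting error; libraries with under 20 such cells are not drawn. Shares of WT 8 week sham lie below those of WT P1 sham in fibroblast-like (0.195% and 1.79%), endothelial-like (0.992% and 4.55%, an order that turned at 1000 UMIs) and macrophage-like cells (1.51% and 7.84%), and mature neutrophil-like cells lie at or near 0.

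Genotype was compared between Mertk KO P1 MI and the 2 WT P1 MI libraries. In fibroblast-like cells 4 members rose and 0 fell, where 6.45% of genes were called, so the count is near the background. Plk1, a kinase that starts mitosis, was at 11.9 and 12.5 CPM in WT P1 MI replicates 1 and 2 and 35.9 CPM in Mertk KO P1 MI (1.67 ± 0.34, edgeR adjusted p = 0.000103). Tyms was at 43.9, 52.4 and 118.9 CPM (1.41 ± 0.33, edgeR adjusted p = 0.000796), Birc5, the passenger complex subunit survivin, at 66, 70.2 and 147.2 CPM (1.23 ± 0.33, edgeR adjusted p = 0.00646) and Mcm5 at 15.3, 18.3 and 31.7 CPM (1.01 ± 0.33, edgeR adjusted p = 0.0386). The medians were 0.55 for the mitotic and 0.32 for the S-phase members. The double-positive share gave no order that held at each depth. At 1500 UMIs it was 2.90% (13 of 448, 1.55 to 4.91) in Mertk KO P1 MI and 3.67% ± 0.00214 (SD, n = 2) in WT P1 MI. The counting intervals of the WT replicates were 1.49 to 7.41 and 2.98 to 4.47. At 2500 UMIs, however, it was 5.96% in the KO and 4.30% and 4.89% in the WT replicates, and without thinning 13.8% against 8.29% and 8.46%. The fibroblast-like cells of Mertk KO P1 MI also carried 2499 CPM of the immature neutrophil list (Lcn2, 2484 CPM) and 216 CPM of neutrophil markers, the highest of the 7 libraries, and their part in the result was not tested. The 4 calls fell to 0 with DESeq2 and rose to 8 when neutrophil and cardiomyocyte markers were not used to set cells aside, a setting chosen after the data were seen.

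In endothelial-like cells the member called was Pcna, which fell in Mertk KO P1 MI (2.25% of genes called): it was at 172.7 and 148.0 CPM in WT P1 MI replicates 1 and 2 and 40.7 CPM in Mertk KO P1 MI (−1.95 ± 0.47, edgeR adjusted p = 0.00364). This single call is near the background share of genes called, and it was lost with DESeq2 (0 members called). In macrophage-like cells 0 members were called, against 1.96% of genes, and 0 were called by DESeq2. An unadjusted p under 0.05 was reached by 13 members and by 1013 of all 10686 genes. All 25 mitotic members there had log2 fold changes below 0 (median −0.97, but −0.01 without WT P1 MI replicate 2; S phase −0.08), and Cdk1 had the largest, at 25.8 and 72.8 CPM in WT and 14.5 CPM in KO (−1.69 ± 0.54, edgeR adjusted p = 0.0741). The macrophage-like double-positive share was 2.83% (8 of 283, 1.23 to 5.49) in KO and 5.35% ± 0.83 (SD, n = 2) in WT, but without thinning the KO value of 9.62% lay between the WT replicates (8.96% and 16.2%). Neutrophil markers in macrophage-like cells were 916 CPM in Mertk KO P1 MI, the highest of the 7 libraries, and 79.9 and 730 CPM in WT P1 MI replicates 1 and 2.

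Between the sham libraries, without a test, the cell types differed in direction. In fibroblast-like cells 10 members were at least 2-fold higher in the KO library than in the WT library, 9 of them mitotic, and 0 lower (10.3% of all genes past 2-fold). Mki67 was at 89.1 and 36.4 CPM and Top2a at 121.8 and 59.1 CPM, so the KO sham library lay near the WT P1 MI libraries (70.8 and 86.1 CPM of Mki67). In macrophage-like cells 14 members were lower in KO sham and 0 higher (13.3% of genes), among them Pcna, Mcm5, Cdk1 and Ccnd1. In endothelial-like cells 6 were higher and 3 lower (12.3% of genes), and the double-positive share was 11.5% (18 of 157, 6.94 to 17.5) in KO and 4.55% (1.49 to 10.3) in WT, intervals that overlap.

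Within the KO, MI was set against sham. In fibroblast-like cells 5 members were past 2-fold higher and 1 lower, Ccnd1 (290.8 CPM in sham, 129.9 CPM after MI), where 15.2% of genes were past 2-fold. In endothelial-like cells 5 were higher (16% of genes). Both counts are near the background, and both rose with TMM scaling in place of library totals. In macrophage-like cells 2 were higher and 18 lower, all 18 mitotic (18.5% of genes): Mki67 was at 219.2 CPM in KO sham and 79.5 CPM after MI, and Top2a at 203.2 and 91.7 CPM. The difference between the genotypes in the change with MI was tested and called 0 members in each class by edgeR. In fibroblast-like, endothelial-like and macrophage-like cells 0.591%, 0.478% and 0.683% of genes were called. An unadjusted p under 0.05 was reached by 2, 3 and 1 members in the same order. It was also reached by 516 of 13535, 382 of 11080 and 370 of 10686 genes.

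Pcna was lower in both Mertk KO libraries than in all 3 WT P1 libraries in 5 classes, an order that many genes shared. In fibroblast-like cells it was at 90.1, 81.8 and 87.7 CPM in WT P1 sham and WT P1 MI replicates 1 and 2, and at 51.1 and 38.8 CPM in Mertk KO P1 sham and MI. In endothelial-like cells the values were 112.6, 172.7 and 148.0 CPM in WT and 44.0 and 40.7 CPM in KO. In macrophage-like cells they were 197.4, 164.6 and 144.5 CPM in WT and 79.9 and 68.2 CPM in KO. The genotypes did not overlap in these 3 classes, nor in T cell-like cells (141.1 to 155.5 CPM in WT, 89.3 and 82.8 CPM in KO) or B cell-like cells (104.1 to 201.2 and 36.6 and 28.0 CPM, the last on 4 UMIs). Within a class the same order was held by 16.5% of all genes in fibroblast-like, 15% in endothelial-like, 14.7% in macrophage-like, 8.79% in T cell-like and 10.4% in B cell-like cells. Of 5663 genes with at least 10 UMIs in each of these libraries in the first 3 classes, 323 (5.7%) lay lower in both KO libraries than in all 3 WT P1 libraries in each class; of the 35 members among those genes only Pcna did so, a smaller share than that of all genes. In the edgeR test of the MI libraries Pcna was called in endothelial-like cells alone; in fibroblast-like cells it was at −1.01 ± 0.37 (edgeR adjusted p = 0.0721).

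**Figure D5:**
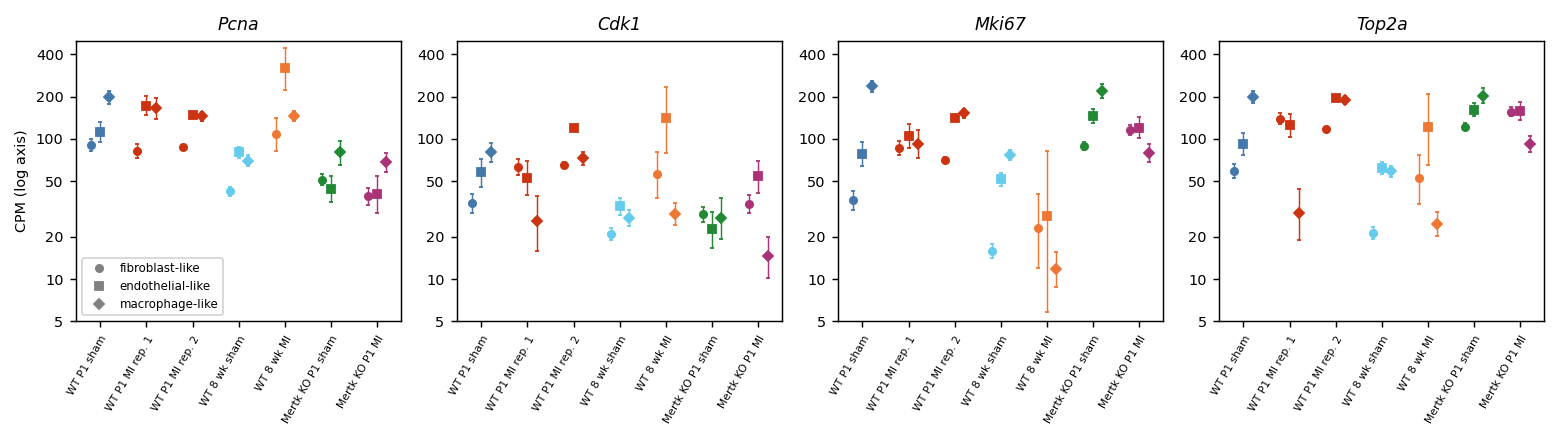
Level (CPM, log axis) of Pcna, Cdk1, Mki67 and Top2a per library in fibroblast-like (circles), endothelial-like (squares) and macrophage-like cells (diamonds), with exact 95% Poisson intervals for counting error. Pcna lies between 81.8 and 197.4 CPM in the 3 WT P1 libraries and between 38.8 and 79.9 CPM in the 2 Mertk KO libraries, while Top2a overlaps between the genotypes in all 3 cell types.

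Pcna and Cdk1 were also compared inside double-positive cells, where the number of such cells does not enter a level. In fibroblast-like double-positive cells Pcna was at 383, 259 and 234 CPM in WT P1 sham and WT P1 MI replicates 1 and 2 (17, 16 and 224 cells) and at 141 and 63.7 CPM in Mertk KO sham and MI (63 cells each). Cdk1 was at 363, 441 and 451 CPM in WT and 169 and 107 CPM in KO. In endothelial-like double-positive cells Pcna was at 331, 424 and 247 CPM in WT and 76.5 and 73.9 CPM in KO, and Cdk1 at 337, 217 and 305 CPM in WT and 84.6 and 142 CPM in KO. The genotypes did not overlap in these values, an order held by 14 of 43 members and 20.4% of all genes in fibroblast-like and by 14 of 34 members and 18.8% of all genes in endothelial-like double-positive cells. In macrophage-like double-positive cells Pcna was at 429 and 283 CPM in WT P1 sham and WT P1 MI replicate 2 and at 214 and 204 CPM in Mertk KO sham and MI, with replicate 1 left out at 6 such cells. Ccnb1 overlapped in fibroblast-like double-positive cells, at 165, 228 and 199 CPM in WT and 174 and 119 CPM in KO. Pcna was lower in the remaining fibroblast-like cells too, at 63.4, 54.0 and 67.8 CPM in WT and 35.9 and 28.8 CPM in KO. Genotype and library cannot be told apart, since each KO group is 1 library.

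T cell-like cells held double-positive cells in every library with enough cells, and no member was called in them. The double-positive share was 2.75% (5 of 182) and 1.49% (26 of 1749) in the WT sham libraries of P1 and 8 weeks, 1.27% (1 of 79) and 1.82% (2 of 110) in WT P1 MI replicates 1 and 2, and 4.32% (7 of 162) and 6.92% (9 of 130) in Mertk KO P1 sham and MI. The ratio of WT P1 sham to WT 8 week sham was 1.85 (0.55 to 4.89), an interval that includes 1. The mitotic sums were 1028 and 1041 CPM in these sham libraries. In the KO libraries Mki67 was at 223.3 and 178.3 CPM, above 98.9 to 159.8 CPM in the WT P1 libraries, and Top2a at 238.5 and 299.4 CPM, above 128.1 to 219.1 CPM. In T cell-like cells 10 of 30 members and 19.9% of all genes lay higher in both KO libraries. MI against sham at P1, KO against WT after MI and the difference of MI changes between genotypes gave 0 called genes by edgeR (0.0% of 8470 genes in each; 229, 214 and 94 genes at an unadjusted p under 0.05). DESeq2 did not call a member either. The 27 T cell-like cells of WT 8 week MI were too few to enter.

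B cell-like cells had few double-positive cells: 3 of 275 (1.09%) in WT P1 sham, 0 of 54 and 2 of 150 in WT P1 MI replicates 1 and 2, 3 of 3236 (0.0927%) in WT 8 week sham, and 1 of 113 and 0 of 45 in Mertk KO P1 sham and MI. Ccnd2, the most abundant D-type cyclin in the P1 libraries, was at 188.1 to 350.4 CPM in the 3 WT P1 libraries and 53.8 CPM in WT 8 week sham. Of 37 members tested, 0 were called after MI at P1 (0.0% of 7247 genes, 123 genes at an unadjusted p under 0.05), 0 between ages after MI (1.77% of genes), and 0 in the interactions with age (0.248%) and genotype (0.069%). Stmn1, which destabilises microtubules, was called lower in Mertk KO P1 MI (0.193% of genes) on 4 UMIs there, at 214.8 and 356.0 CPM in WT P1 MI replicates 1 and 2 and 28.0 CPM in KO; DESeq2 called 0 members.

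Monocyte-like cells rarely had both genes, in 0 of 443, 0 of 37 and 2 of 270 thinned cells of WT 8 week sham, WT P1 sham and WT P1 MI replicate 2, and in 1 of 211 and 7 of 540 cells of Mertk KO P1 sham and MI. Their mitotic sum was 126 CPM in WT P1 sham and 559 CPM in WT P1 MI replicate 2, far below the 2012 and 1595 CPM of macrophage-like cells of the same libraries. They expressed Ccnd3 (203 to 226 CPM in the sham libraries of both genotypes at P1 and in WT P1 MI replicate 2) and Cdkn1a (493 to 766 CPM in the same libraries) over Ccnd1 (0 to 16.6 CPM). In mature neutrophil-like cells the S-phase members summed to 29.7 to 130 CPM per library and Cdkn1a reached 897 CPM in Mertk KO P1 MI. Mural-like cells, the pericytes and smooth muscle of vessels, were numerous only in replicate 2 of WT P1 MI and in WT 8 week sham. There 18 of 339 (5.31%) and 0 of 93 cells were double-positive, the latter allowing a share of up to 3.23% at a limit of 3 counts (exact upper bound 3.89%), and Mki67 was at 140.6 and 7.0 CPM; age and operation differ together between these libraries.

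G1 cyclins and Cdkn1a differed between cell types. Ccnd1 was at 277.5 to 555.9 CPM in endothelial-like cells of the 6 libraries other than WT 8 week MI (272.3 CPM) and at 3.4 to 16.9 CPM in T cell-like cells, which used Ccnd2 (207.8 to 352.5 CPM). Among the 3 main classes and in the 6 libraries other than WT 8 week MI, Cdkn1a was highest in macrophage-like cells, at 419.9 to 783.2 CPM, and stood at 73.2 to 140.5 CPM in fibroblast-like cells. In endothelial-like cells it was at 228.5 to 294.4 CPM in the WT P1 libraries and at 91.3 and 94.9 CPM in the KO libraries (KO against WT after MI: −1.46 ± 0.47, edgeR adjusted p = 0.0728). That order was shared by 6 of 39 members and 15% of all genes in endothelial-like cells, so it is at the background. E2f1 was low throughout, from 1.9 to 37.9 CPM in the 3 main classes.

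Other genes of the pathway were taken from fixed lists. Of 9 other inhibitors, fibroblast-like cells after MI at P1 gave 1 call (1.44% of all genes were called). It was Cdkn2b (p15), at 4.8 and 2.9 CPM in WT P1 MI replicates 1 and 2 and on 2 UMIs in WT P1 sham. Between ages after MI, 2 inhibitors were called higher and 2 lower in fibroblast-like cells, where 16.5% of all genes were called. Cdkn1b (p27) was at 70.8 and 79.3 CPM at P1 and 19.4 CPM in WT 8 week MI (2.06 ± 0.53, edgeR adjusted p = 0.00186). Cdkn1c (p57), an imprinted inhibitor, was at 355.6 and 305.7 CPM at P1, 93.2 CPM in WT 8 week sham and 1.9 CPM (1 UMI) in WT 8 week MI. Cdkn2a fell at P1 relative to 8 weeks (−2.74 ± 0.79, edgeR adjusted p = 0.00602), as did Ccng1, a p53 target (−2.30 ± 0.35, edgeR adjusted p = 7.26e-09), the same direction as Cdkn1a. In macrophage-like cells Gdf15, a secreted p53 target, fell in Mertk KO P1 MI, at 34.4 and 64.2 CPM in WT P1 MI replicates 1 and 2 and 5.2 CPM in KO (−3.12 ± 0.61, edgeR adjusted p = 6.88e-05), and Cdkn2c, the p18 inhibitor, fell as well (−2.19 ± 0.59, edgeR adjusted p = 0.0136). Gdf15 fell in fibroblast-like cells of the same comparison (−1.54 ± 0.49, edgeR adjusted p = 0.0324). Other mitotic genes between ages after MI numbered 5 higher and 1 lower of 27 in macrophage-like cells, where 12.3% of all genes were called. They were led by Kif15 (2.72 ± 0.63, edgeR adjusted p = 0.000528) and Pttg1 (−1.41 ± 0.46, edgeR adjusted p = 0.0256).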

How the data were processed

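The deposited tables give unnormalised UMI counts for each gene and barcode, made by the authors with Cell Ranger 6.1.0 (WT 8 week sham and WT P1 MI replicate 2) or 4.0.0 (5 libraries), per the file headers, on GRCm38 (mm10), per the submitters' processing notes; 10x 3′ chemistry v3 or v3.1, per the labels' protocols. The 2 WT P1 MI libraries were thus counted with different versions. Barcodes needed at least 500 UMIs, at least 300 genes and a mitochondrial share of at most 15%, with total counts of 7707724 to 130847843 UMIs per library; pairs of libraries shared at most 41 barcodes and at most 0.613% of the smaller library. No doublet caller was applied in the results given; removal by Scrublet score (scanpy 1.11.5) is an alternative.

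Cell type markers were fixed with the groups; the counting rule (at least 3 markers, at least 2 times every other lineage) was written after the data were seen. Counts were summed per library and class of at least 30 cells and tested by the functions glmQLFit and glmQLFTest of edgeR (4.0.16; R 4.3.3; filterByExpr, TMM factors of 0.805 to 1.18) in 1 fit of 6 groups. The spread comes from the WT P1 MI pair alone (1 residual degree of freedom), and the groups of 1 library are taken to vary as that pair does. P-values were adjusted (Benjamini-Hochberg) over all genes within each class and comparison, and errors of fold changes are approximate standard errors. Comparisons of single libraries are log2 CPM ratios, 0.5 counts having been added, at 10 or more UMIs over both, with no test. Shares were counted after thinning to 1500 UMIs. The edgeR fit, but not the thinning, was tested on simulated data. DESeq2 1.42.0, other gates, filters, depths and scalings were alternatives. PCR duplicates are removed by UMIs, and intervals cover counting error only.

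Members, lists and comparisons were chosen with earlier results of these data known. Named in each class are 13 standard members, the 5 called members with the largest change, single exceptions of a list, and per other list the largest call in each direction with Cdkn1b and Cdkn1c.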

Additional observations from a re-analysis of the deposited data

Results flagged for a closer look

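For 6 results the change with MI differed between P1 and 8 weeks by the test of the difference itself (edgeR's quasi-likelihood test, Benjamini-Hochberg-adjusted, log2 units, P1 minus 8 weeks). In fibroblast-like cells Rrm2 was at −2.81 ± 0.56 (adjusted p = 0.000128), Mcm2 at −2.87 ± 0.70 (adjusted p = 0.00341), Mcm5 at −2.46 ± 0.65 (adjusted p = 0.00849), Ccnb1 at −2.03 ± 0.59 (adjusted p = 0.0224) and Ccnd1 at 2.43 ± 0.76 (adjusted p = 0.0391). In endothelial-like cells Rrm2 was at −2.95 ± 0.67 (adjusted p = 0.00409). All 6 rest on the single WT 8 week MI library, with 138 fibroblast-like and 49 endothelial-like cells. In that library a median of 15.4% of the UMIs of mitotic members of fibroblast-like cells lay in cells with both Mki67 and Top2a, against 86.6% to 95.2% in the others, and macrophage markers stood at 415 CPM in fibroblast-like and 441 CPM in endothelial-like cells. The part of either in the 6 results was not tested.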

How the results depend on the processing

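Of 314 values of named members under alternatives, 230 kept direction and side of the threshold, 75 lost the call, 8 moved and 1 reversed; the cause was not tested. Counts of called members (the value given in the report first) moved as follows. With DESeq2 they went from 7 to 0 (fibroblast-like, WT P1 MI against sham), 9 to 4 (against WT 8 week MI), 4 to 0 (Mertk KO against WT after MI) and 5 to 1 (injury by age); to 0 from 2, 1, 1 and 1 in the same 4 comparisons of endothelial-like cells; from 9 to 3 in macrophage-like cells between ages after MI; and in B cell-like cells from 1 to 0 for genotype and 0 to 1 for injury by age. Library totals in place of TMM gave 2 in fibroblast-like cells after MI at P1, 1 in endothelial-like cells after MI, 2 there between ages, 2 there between genotypes, and 1 in B cell-like injury by age. Sums of cells thinned to 1500 UMIs gave 0, 2, 0 and 1 in the 4 fibroblast-like comparisons, 0 after MI and 0 between genotypes in endothelial-like cells, and 0 in B cell-like cells between genotypes. Without cells of high Scrublet scores the counts were 13 (fibroblast-like injury by age), 1 (endothelial-like after MI), 2 (endothelial-like injury by age), 4 (macrophage-like injury by age), 3 (T cell-like genotype) and 0 (B cell-like genotype).

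A stricter limit on the markers of other lineages gave 1 (fibroblast-like genotype), 15 (endothelial-like after MI), 2 (endothelial-like genotype), 0 (endothelial-like injury by age), 3 (endothelial-like injury by genotype), 6 (macrophage-like injury by age), 0 (B cell-like genotype) and 1 (B cell-like injury by age), and a WT P1 sham endothelial-like double-positive share of 0% in place of 4.55%. A gate at 2 markers gave 2 (endothelial-like between ages), 1 (B cell-like between ages) and 2 (B cell-like genotype). Cells with at least 1000 UMIs gave 2 (endothelial-like between ages) and 0 (B cell-like genotype), and no filter on low counts gave 0 for the latter. A gate that did not compare cardiomyocyte and neutrophil markers, chosen after seeing the data, gave 4 (fibroblast-like after MI), 8 (fibroblast-like genotype), 0 and 2 (endothelial-like after MI and between ages) and 4 (macrophage-like between ages). With TMM scaling in place of library totals, members past 2-fold in Mertk KO P1 MI against sham went from 6 to 13 in fibroblast-like and from 5 to 10 in endothelial-like cells.

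Leaving out each WT P1 MI replicate in turn, the median log2 fold change of mitotic members after MI at P1 ranged from 1.12 to 1.19 in fibroblast-like, 0.43 to 1.5 in endothelial-like and −1.49 to −0.20 in macrophage-like cells. Between ages after MI it ranged from 0.18 to 0.43, −0.77 to 0.41 (endothelial-like, with Kif11 at 0 UMIs in WT 8 week MI and its fitted value no bound) and −0.11 to 1.25, and between genotypes after MI from 0.56 to 0.61, −0.24 to 0.71 and −1.42 to −0.01. Top2a of macrophage-like cells between ages reversed to −0.16 without replicate 2 (2.62 without replicate 1). No paired analysis was possible because only WT P1 MI carries replicate numbers.

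The double-positive share depended on depth. Without thinning it was 6.05%, 1.47%, 8.29%, 8.46%, 10.1% and 13.8% in fibroblast-like cells of WT P1 sham, WT 8 week sham, WT P1 MI replicates 1 and 2, and Mertk KO P1 sham and MI. In endothelial-like cells of WT P1 MI replicate 2, WT 8 week sham and Mertk KO P1 MI it was 16.8%, 1.64% and 12.3%. In macrophage-like cells of WT P1 sham, WT P1 MI replicate 2, WT 8 week sham, WT 8 week MI and Mertk KO P1 MI it was 19.4%, 16.2%, 5.81%, 1.31% and 9.62%. At 1000 UMIs it was 2.30% (fibroblast-like, WT P1 MI replicate 2), and 0.847% and 3.33% (endothelial-like, WT P1 sham and WT P1 MI replicate 2). At 2500 UMIs it was 4.89%, 5.47% and 5.96% (fibroblast-like, WT P1 MI replicate 2, Mertk KO P1 sham and MI), 9.62%, 2.95% and 9.90% (endothelial-like, WT P1 MI replicate 2, WT 8 week sham and Mertk KO P1 MI) and 3.52% (macrophage-like, WT 8 week sham). WT 8 week sham stayed below WT P1 sham in fibroblast-like and macrophage-like cells at each depth, but not in endothelial-like cells at 1000 UMIs (0.888% and 0.847%).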
